A study of Arabidopsis thaliana with 4 samples.

Results

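The CHX genes of Arabidopsis thaliana encode cation/proton exchangers, and 7 of these genes are listed on the 7 probes that measured them, among 25777 gene probes with a ratio on at least 3 arrays. Of the probes so measured, those with a name list 13863 genes in all. Members were selected on their names, by a gene symbol in the platform annotation that starts with CHX and a number, and on being measured, with a ratio on at least 3 arrays. All 7 candidate probes were measured on all 4 arrays, so that requirement removed none and no probe lay near it. Of these, 3 probes list 1 gene each, namely chx28, CHX16 and CHX20. The other 4 list 2 genes each: both CHX23 and CHX21 on 2 probes, CHX19 with CHX15 on 1 probe, and chx28 with CHX15 on 1 probe. A ratio from such a probe belongs to neither of its genes alone. The gene table holds 28 CHX genes, of which 21 are listed on no named probe and are not analysed here. chx28 was chosen by its ratios on these arrays, so its values are described with no test.

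Each array carried total RNA of apetala2 mutant inflorescences in one channel and of wild-type inflorescences in the other. APETALA2 is a transcription factor that specifies sepals and petals. The 4 arrays, called sets 1 to 4, form 1 group. Channel 1 held the mutant RNA on sets 1 and 3, and channel 2 held it on sets 2 and 4. Neither the allele, the dyes, the plant age nor the growth of the plants is in the labels, and nothing says that the sets came from separate plants, so the p-values speak for the spread among arrays, which may be technical.

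CHX proteins form a branch of the monovalent cation/proton antiporters. They move potassium or other monovalent cations against protons across the plasma membrane or internal membranes, and so bear on potassium balance and on the pH of cell compartments. In Arabidopsis many CHX transcripts are known from pollen, where potassium transport accompanies germination and tube growth. CHX21 and CHX23 are known for a shared part in guiding pollen tubes to ovules, and CHX20 is known from guard cells, the paired cells that open and close stomata. CHX16 and CHX19 belong to a clade with the endomembrane exchanger CHX17, and combined loss of its members is known to reduce seed set.

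AP2 itself is listed on no named probe, and ratios give no levels, so neither the mutant nor the tissue could be checked against its own genes. A deposited value is the log2 ratio of the 2 channels, but which channel is the numerator is not given, so no direction by genotype is stated. Measured ratios numbered 25741 to 25841 per array. Values at the end of the scale, a ratio of 100 either way, were treated as not measured, because most empty spots sat there (62.8% to 87.0% per array). Ratios are signed in 2 ways. In the labelled orientation sets 2 and 4 are turned, as their swapped channels ask. Across the 25185 probes measured on every array, however, sets 1 and 3 correlated at -0.249 and sets 2 and 4 at -0.136, although each pair shares its labelled channels, while sets 1 and 4 correlated at 0.317 and sets 2 and 3 at 0.310. A second orientation turns sets 2 and 3. It was taken from these same data, and its p-values make no allowance for that. By construction the mean with sets 2 and 3 turned is 0.5 times the difference between the channel-swap mean of sets 1 and 2 and that of sets 3 and 4. A mean far from 0 there thus says that the channel-swap means of the 2 pairs of arrays differed. It does not by itself say that they had opposite signs, since 1 pair may be far from 0 and the other near it. A probe passed at a limma adjusted p under 0.05 over all probes.

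chx28, annotated as cation/hydrogen exchanger 28, had deposited log2 ratios of -1.53, 1.40, 0.83 and -1.49 on sets 1, 2, 3 and 4. Sets 1 and 4 were below 0 and sets 2 and 3 above it, with no overlap between them. Those signs were found in 10.5% of all probes measured on 4 arrays, and the mirror image in 12.4%. The ratios of chx28 are differences between channels of 2.90-fold, 2.64-fold, 1.78-fold and 2.80-fold. In inflorescence RNA, fewer cells of a type and less RNA per cell cannot be told apart.

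The channel-swap mean of chx28, 0.5 times the first set's ratio minus the second's, was -1.47 for sets 1 and 2 and 1.16 for sets 3 and 4. The channels thus differed by 2.76-fold in the first pair and 2.23-fold in the second, but in opposite labelled directions. The labelled mean was accordingly near 0, at -0.15 ± 0.59 on the log2 scale (SE, n = 4). With sets 2 and 3 turned the mean was -1.31 ± 0.16 (SE, n = 4), a 2.48-fold difference. Of the sum of squares of its 4 ratios, 95.6% lay in this contrast and 1.31% in the labelled one. Over all probes measured on 4 arrays these shares were 50.3% and 24.8%, so this contrast was the larger there too. The values of chx28 describe the ratios by which it was chosen and support nothing further.

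**Figure D1:**
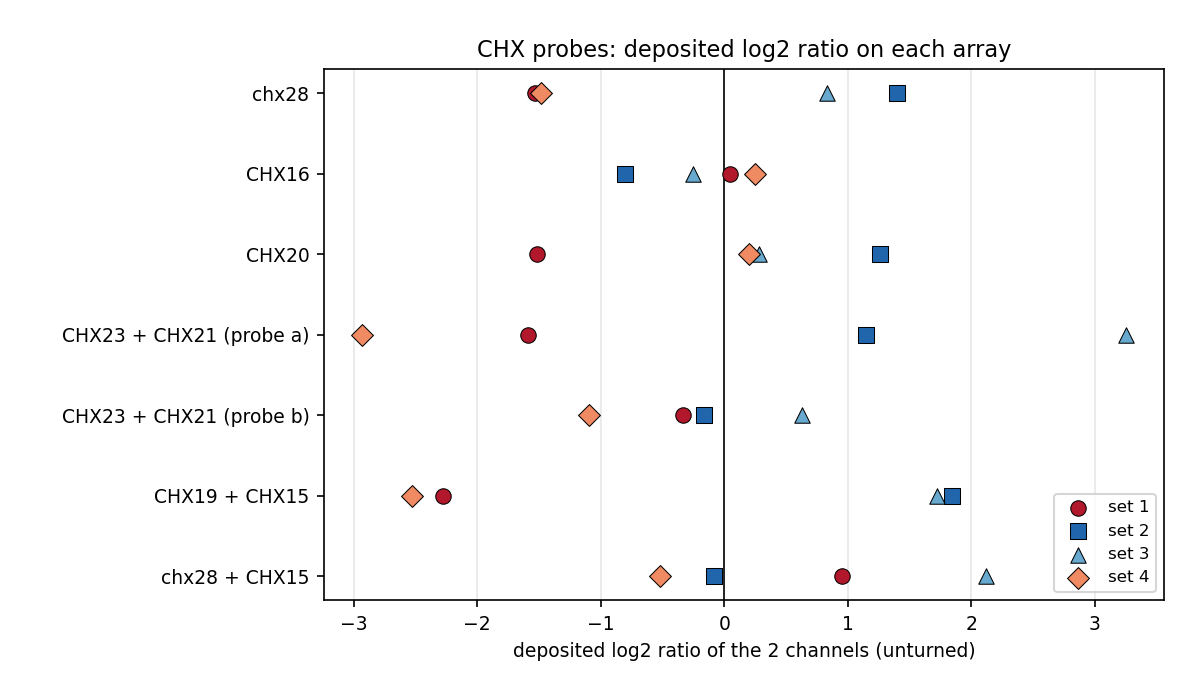
Deposited, unturned log2 ratio (horizontal axis) of each CHX probe on each of the 4 arrays, 1 symbol per array and 1 row per probe; names joined by + share a probe, and probes a and b are A000564_01 and A008708_01. For chx28 and for CHX19 + CHX15, sets 1 and 4 lie left of 0 and sets 2 and 3 right of it, whereas for CHX20 sets 3 and 4 lie together at 0.28 and 0.20.

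CHX20, the guard cell exchanger, had -1.52 on set 1 and 1.26 on set 2 but 0.28 on set 3 and 0.20 on set 4. It thus differed between channels by 2.86-fold and 2.40-fold on the first pair of arrays and by 1.22-fold and 1.15-fold on the second. Its channel-swap mean was -1.39 for sets 1 and 2 and 0.04 for sets 3 and 4. On sets 1 and 2 CHX20 lay close to chx28, and on sets 3 and 4 it did not: set 4 read 0.20 for CHX20 and -1.49 for chx28.

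The mean of CHX20 was -0.67 ± 0.34 with the labelled channels (SE, n = 4, limma adjusted p = 0.760) and -0.72 ± 0.31 with sets 2 and 3 turned (SE, n = 4, limma adjusted p = 0.411). Neither passed, and the 95% intervals reached from -1.53 to 0.18 and from -1.48 to 0.05. The 2 means are alike because only sets 1 and 2, which both orientations treat in the same way, were far from 0.

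CHX16, of the CHX17 clade, had 0.05, -0.80, -0.25 and 0.25 on sets 1, 2, 3 and 4. All 4 ratios were under 2-fold, and their signs were opposite to those of chx28 on every array. Its mean was 0.09 ± 0.21 with the labelled channels (SE, n = 4, limma adjusted p = 0.954) and 0.34 ± 0.16 with sets 2 and 3 turned (SE, n = 4, limma adjusted p = 0.445). The 95% interval of the latter ran from -0.05 to 0.73, so its mean, a 1.26-fold difference, was not separable from 0.

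**Figure D2:**
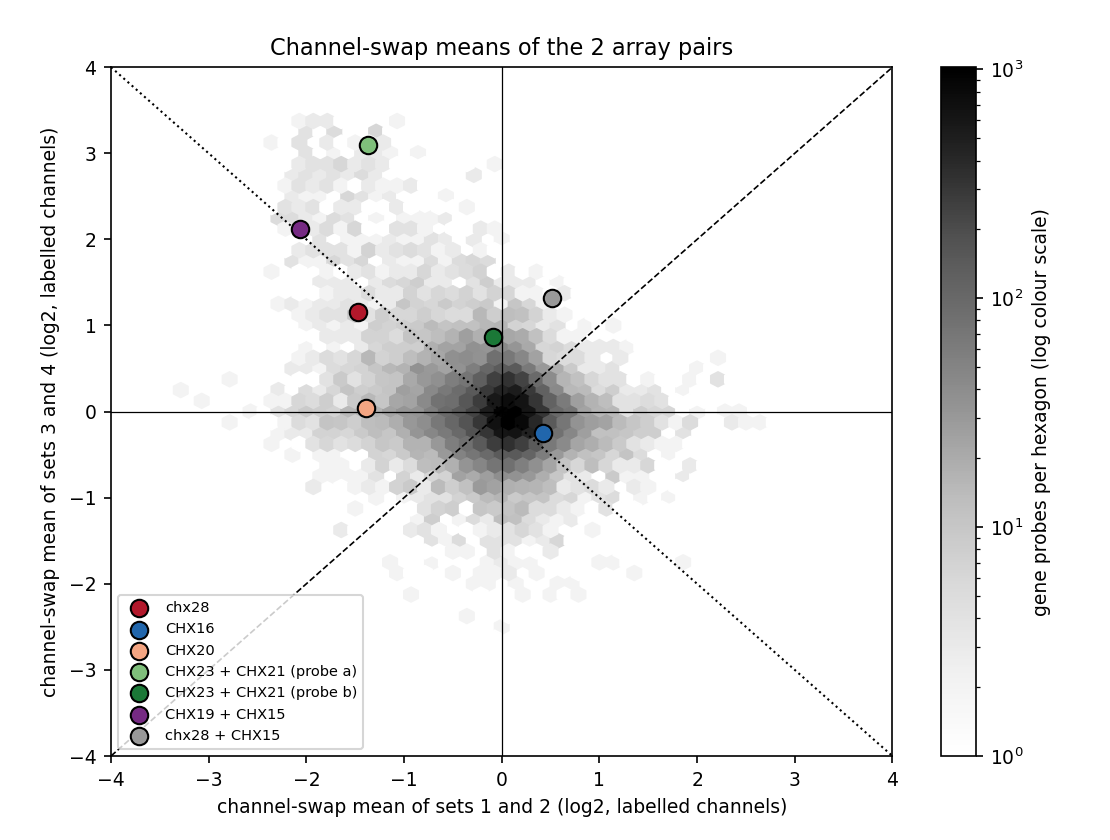
Channel-swap mean of sets 1 and 2 (horizontal) against that of sets 3 and 4 (vertical), both as log2 ratios signed by the labelled channels, for each CHX probe (coloured) over all gene probes measured on 4 arrays (grey hexagons, log colour scale; 5 probes lie outside the axes). Pairs that agree would lie on the dashed line and pairs that oppose each other on the dotted line; CHX19 + CHX15 lies at -2.06 and 2.12 next to the dotted line, and CHX20 at -1.39 and 0.04 beside the horizontal axis.

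Among the probes that list several CHX genes, the one for CHX19 and CHX15 (A009287_01) gave -2.27, 1.85, 1.72 and -2.53 on sets 1, 2, 3 and 4. Every array showed at least a 3.30-fold difference between its channels. The pairs opposed each other, with channel-swap means of -2.06 and 2.12. Its labelled mean was 0.03 ± 0.92 (SE, n = 4, limma adjusted p = 0.996), and with sets 2 and 3 turned it was -2.09 ± 0.17, a 4.27-fold difference with 1 sign on 4 of 4 arrays (SE, n = 4, limma adjusted p = 0.00828). Without set 1 that mean was -2.03 and no longer passed (limma adjusted p = 0.0502). The call was also lost when each pair was averaged to 1 replicate (limma adjusted p = 0.138).

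CHX23 and CHX21, the pair known from pollen tube guidance, share 2 probes that did not read alike. The first (A000564_01) gave -1.59, 1.15, 3.25 and -2.93 on sets 1, 2, 3 and 4, the largest ratios of the family by size on sets 3 and 4. Those arrays showed 9.52-fold and 7.62-fold differences, against 3.01-fold and 2.21-fold on sets 1 and 2. The second (A008708_01) gave -0.34, -0.17, 0.63 and -1.10 on sets 1 to 4, with only set 4 beyond 2-fold.

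The first probe had, with sets 2 and 3 turned, a mean of -2.23 ± 0.38 (SE, n = 4), which did not pass (limma adjusted p = 0.0542). It passed without set 2 (mean -2.59, limma adjusted p = 0.0459) and among probes measured on all 4 arrays (limma adjusted p = 0.0469). Under every other alternative fitted it did not pass. The limma adjusted p was 0.0533 with arrays centred, 0.148 with limit values kept and 0.356 with pairs averaged. The second probe had -0.47 ± 0.22 (SE, n = 4, limma adjusted p = 0.438). Signed by the labels, the means were 0.86 ± 0.98 and 0.39 ± 0.25 (SE, n = 4), and neither passed (limma adjusted p = 0.866 and 0.789). The first probe was lower than the second on 4 of 4 arrays with sets 2 and 3 turned, by 1.25 to 2.62 on the log2 scale. The mean difference, first minus second, was -1.76 ± 0.63 (SD, n = 4), with an exact two-sided sign-flip test at p = 0.125, the smallest that 4 arrays allow. Adjusted over the 2 pairs of probes tested in this way, p was 0.25 by the same exact test.

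The probe that lists chx28 with CHX15 (A023604_01) did not follow the chx28 probe. It gave 0.96, -0.08, 2.12 and -0.52 on sets 1, 2, 3 and 4. Of the 7 probes it alone had signs that follow the labelled channels on all 4 arrays, positive on sets 1 and 3 and negative on sets 2 and 4. Of all probes measured on 4 arrays, 8.76% had those same signs. Probes with the mirror image, which also follows the labelled channels, were not counted, so the share that follows them is larger. The labelled mean of the chx28 and CHX15 probe, 0.92 ± 0.35, had an unadjusted limma p of 0.0424. It did not pass (SE, n = 4, limma adjusted p = 0.760). Its other mean, with sets 2 and 3 turned, was -0.40 ± 0.48 (SE, n = 4, limma adjusted p = 0.761).

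The chx28 probe minus this shared probe came to -0.91 ± 1.60 on the log2 scale with sets 2 and 3 turned (SD, n = 4), lower on 3 arrays and higher by 1.29 on set 3. The CHX19 and CHX15 probe, which also shares a listed gene with it, differed from it by -1.69 ± 1.51 (SD, n = 4), lower on 3 arrays (exact two-sided sign-flip test, p = 0.25, and 0.25 after adjustment). Which listed transcript each probe bound was not tested.

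**Figure D3:**
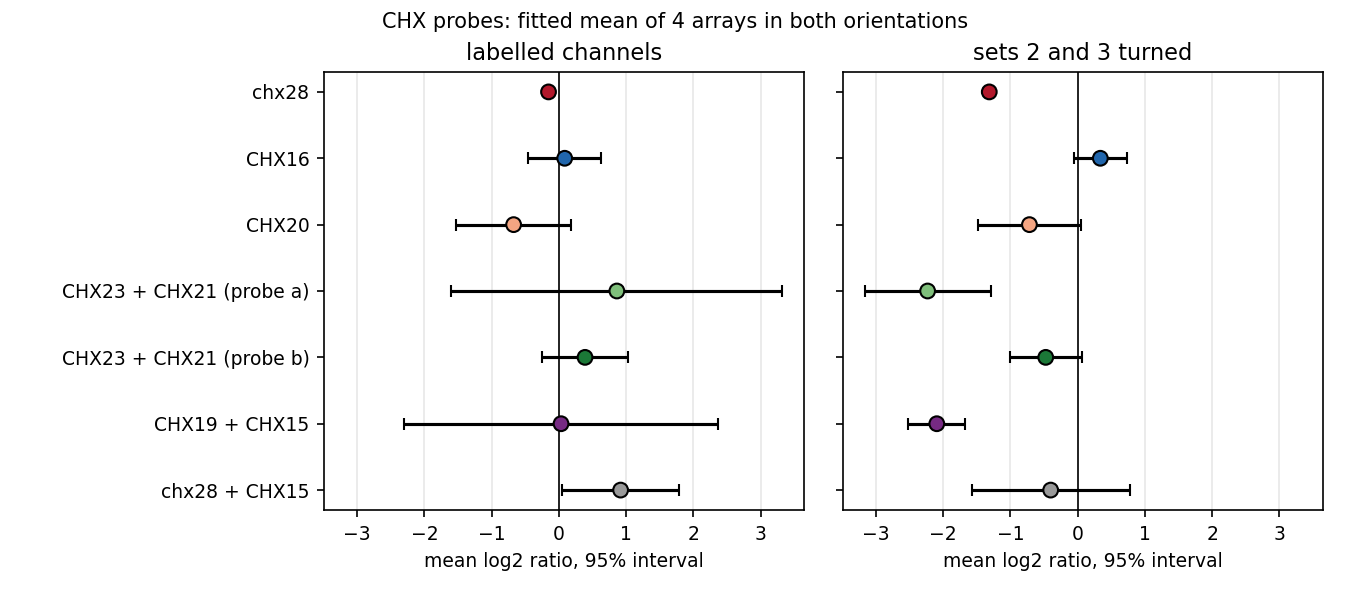
Fitted mean log2 ratio of each CHX probe over 4 arrays (points) with its 95% limma interval (bars; none is drawn for chx28, which was chosen by its ratios), signed by the labelled channels on the left and with sets 2 and 3 turned on the right. On the left the interval of chx28 + CHX15 alone leaves out 0, from 0.05 to 1.79; on the right those of CHX19 + CHX15 and of the first CHX23 + CHX21 probe lie below 0.

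With the chx28 probe set aside, 5 of 6 means lay below 0 with sets 2 and 3 turned and 1 of 6 with the labelled channels, where 44.6% and 46.6% of all tested probes did. The medians of these 6 means were -0.59 and 0.24, beside 0.03 and 0.02 over all probes tested. The 6 are not independent, since some list the same gene. Signs below 0 on sets 1 and 4 and above 0 on sets 2 and 3 were found in 2 of the 6, against 10.5% of all probes measured on 4 arrays. The mirror image, shown by CHX16, was found in 12.4% of all probes. Of the 6 probes other than chx28's, 1 passed with sets 2 and 3 turned, that of CHX19 and CHX15, where 2.05% of all tested probes did (528 of 25777), and 1.82% did so below 0. In the labelled orientation 0 of 6 passed in limma, and 1 had an unadjusted p under 0.05. Over all probes 0 passed there too (0%), and 1689 had an unadjusted p under 0.05. An ordinary test without moderation passed 0 of 6 in either orientation. At an unadjusted p under 0.05 it had 0 with the labelled channels and 2 with sets 2 and 3 turned. Over all 25777 probes the same test passed 0 in either orientation, with 1780 and 2941 at an unadjusted p under 0.05.

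Pollen and anther probes were read beside the family, since many of its genes are known from pollen. Mature pollen genes are listed on 16 probes. Of these 14 had means below 0 with sets 2 and 3 turned, and 9 passed there, with a median of -1.57. Over all tested probes 44.6% lay below 0 in that orientation, 1.82% passed below 0, and the median was 0.03. Several of the 16 pollen probes list the same gene, as with PPME1 and VGD1 among those that passed, and 2 list 1 gene. The other 14 list several genes, some of which, such as FER and HTR12, are not on the pollen list. A ratio from such a probe belongs to none of its genes alone, and of the 9 that passed 1 lists 1 gene. RALFL25, a secreted RALF peptide, had -2.49, 1.45, 3.50 and -3.19 on sets 1 to 4 and a mean of -2.66 ± 0.34 (SE, n = 4, limma adjusted p = 0.0244). TUA1, a tubulin of pollen, had -0.49, 0.71, 0.36 and -0.56. Both show the signs of chx28, with larger ratios on sets 3 and 4 for RALFL25, as for the first CHX23 and CHX21 probe. A probe that lists RALFL25 with RALFL30 and RALFL26 did not show those signs. It gave 0.59, -0.43, -0.46 and -0.75 on sets 1 to 4. Its mean with sets 2 and 3 turned was 0.18 ± 0.25 (SE, n = 4, limma adjusted p = 0.791), which lay above 0 and did not pass. With the labelled channels the pollen median was 0.11 and none of the 16 passed.

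Of 9 probes that list an anther or tapetum gene, 7 lay below 0 in both orientations. The medians were -0.49 with the labelled channels and -0.59 with sets 2 and 3 turned. Over all tested probes 46.6% and 44.6% lay below 0 in these orientations. Of the 9, 1 passed with sets 2 and 3 turned, a probe of several genes, where 2.05% of all tested probes passed. The anther gene ATA27 had -2.69 and 1.99 on sets 1 and 2 but 0.30 and -0.11 on sets 3 and 4, far from 0 on the first pair of arrays alone, as was CHX20. Its second probe had 0.14, -0.48, -0.46 and -0.11. ATA20, another anther gene, had -1.63 and 2.39 on the first pair and 0.59 and 0.37 on the second, and its second probe -1.14 and 1.36, then 0.29 and 0.43. The means with sets 2 and 3 turned were -1.27 ± 0.47 for the first ATA27 probe and -1.06 ± 0.44 for the first ATA20 probe (SE, n = 4, limma adjusted p = 0.332 and 0.395). The second probes had 0.24 ± 0.15 and -0.59 ± 0.31 (SE, n = 4, limma adjusted p = 0.549 and 0.494), so those of ATA27 lay on opposite sides of 0. SWEET8, a sugar transporter needed for the pollen wall, had -0.87 ± 0.25 (SE, n = 4, limma adjusted p = 0.206). The probe that passed lists SWEET8 with AtVEX1 and SWEET4 and had -2.07 ± 0.25 (SE, n = 4, limma adjusted p = 0.0194). A probe that lists SWEET8 with SWEET6 and SWEET7 had -0.21 ± 0.50 (SE, n = 4, limma adjusted p = 0.891). EMS1, a receptor kinase of tapetum identity, lay on the other side at 0.65 ± 0.20 (SE, n = 4, limma adjusted p = 0.258). The part of pollen or anther content in the CHX ratios was not tested.

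**Figure D4:**
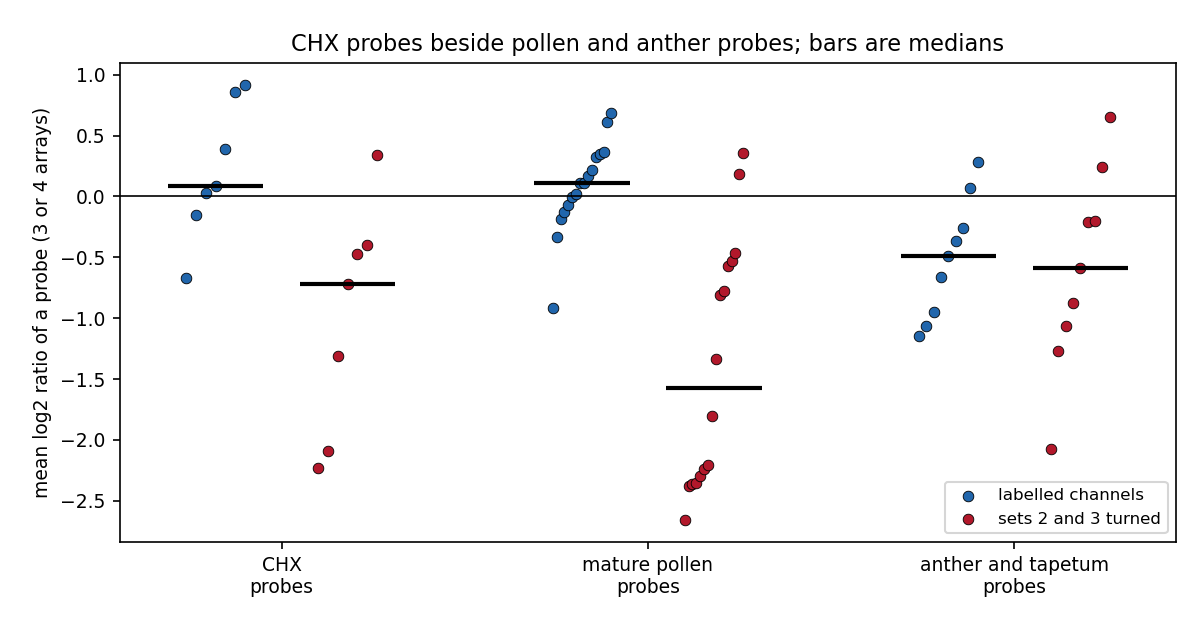
Mean log2 ratio of each probe (points) of the CHX family, of the mature pollen list and of the anther and tapetum list, with the labelled channels (blue) and with sets 2 and 3 turned (red); black bars are medians. With sets 2 and 3 turned the median is -0.72 for the 7 CHX probes, chx28 among them (-0.59 without it), -1.57 for the 16 pollen probes and -0.59 for the 9 anther probes.

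The other cation and proton transporters that were listed for comparison could not be read. The lists held 16 KEA and NHX exchangers, 11 plasma membrane proton pumps and 31 names of potassium channels and carriers. Of the 31 names, 28 were matched in the gene table, and the others could not be looked up. No matched gene of these lists was on a named probe measured on at least 3 arrays, so no value of theirs is analysed here.

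The genes whose 4 ratios lay nearest to those of chx28, by Euclidean distance over the 4 arrays among 5511 probes with 1 gene, were AT3G22020, AT5G03590, AT2G33690, AT2G03200 and AT2G41970, at 0.33 to 0.50 log2 units. AT3G22020, the nearest, had -1.56, 1.09, 0.95 and -1.51 on sets 1 to 4. Nearest to CHX20 were AT3G59510, AT3G10430 and AT3G28570, at 0.35 to 0.42, and AT3G59510 had -1.86, 1.24, 0.20 and 0.17. Nearest to CHX16 were AT1G11210, AT4G09750 and AT2G27900, at 0.18 to 0.23, where small ratios leave many probes close together. The probes named as nearest to CHX20 had no ratio beyond 0.20 by size on sets 3 and 4. They were picked by these same ratios, so this adds nothing further.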

How the data were processed

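Per the labels, the authors processed and normalized the arrays as an earlier publication describes, and they deposited 1 log2 ratio of the 2 channels per spot and array. Scanner, background correction, filters and numerator: not given in the sources used here. No intensities were used, so the number of arrays limits the precision. Of 26933 deposited spots, 459 controls were left out, which left 26474 gene probes. Values within 0.0001 of 6.64 by size, the log2 of 100, were treated as not measured. Ratios of turned sets were multiplied by -1.

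An intercept was fitted with limma 3.58.1 (R 4.3.3, lmFit and eBayes) to probes measured on at least 3 arrays and tested against 0, two-sided, with Benjamini-Hochberg adjustment over all 25777. Errors are moderated standard errors (SE) unless marked SD. The fit was tested on simulated data with known changes. Alternatives were limit values kept, probes on all 4 arrays, arrays centred, a channel term, pairs averaged, no moderation and each array left out.

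Names came from the platform annotation, with symbols and list names matched through the TAIR10.1 gene table (5756 of 5784 probes with 1 gene matched). The family, the lists and the rule for genes named were chosen with earlier results of these data known. That rule named every CHX probe, per list the passing probes with 1 gene and up to 4 others with the largest means, and the nearest probes by distance. Values of further list probes were given only in counts and medians. Exceptions are the second probes of ATA27 and ATA20 and shared probes that also list RALFL25 or SWEET8. No build is named for the probes, so no coordinates are printed.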

Additional observations from a re-analysis of the deposited data

How the results depend on the processing

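The count of CHX probes that passed with sets 2 and 3 turned, chx28 set aside, was 1 of 6. It was 2 among probes measured on all 4 arrays, 0 without moderation, 0 with pairs averaged, 0 with probes of several genes left out, and 0 to 2 when 1 array was left out (0 without set 1, 2 without set 2). Over all probes the count of 528 became 273 with the channel term, 158 with limit values kept, 0 without moderation (2941 at an unadjusted p under 0.05) and 0 with pairs averaged, and lay between 94 and 441 without 1 array (94 without set 1, 117 without set 3, 116 without set 4). With the labelled channels both counts were 0 under every alternative run. Means of the 6 probes other than chx28's changed sign in 4 of 120 recomputations. All 4 were means that did not pass, and all came from leaving out 1 array. Limit values kept, probes on all 4 arrays, the channel term, pairs averaged and no moderation return the same means for these probes. Many of the 120 thus could not change sign, and the count is no measure of stability. With the labelled channels CHX16 ran from -0.15 without set 2 to 0.20 without set 3. The CHX19 and CHX15 probe ran from -0.80 without set 4 to 0.80 without set 1, with -0.53 without set 3. With sets 2 and 3 turned the chx28 and CHX15 probe ran from -0.85 without set 1 to 0.17 without set 3. The mean of chx28 lay between -1.47 and -1.24 without 1 array with sets 2 and 3 turned, and between -0.70 and 0.31 with the labelled channels. The cause of these changes was not tested. No value among 14 sets of 4, the 7 probes in both orientations, stood apart by Dixon's test.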

Other observations

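Of the genes that lie within 2 places of chx28, CHX16 and CHX20 in the gene table, 2 had a probe of their own. AT3G52070, 2 places before chx28, has 2 such probes, which gave 0.24, -0.11, 0.23 and 0.15 and 0.42, 0.11, 0.20 and -0.06 on sets 1 to 4. None of these 8 ratios reached 0.50 by size, against 0.83 to 1.53 for chx28. AT3G53730, next to CHX20, gave 0.42, 0.22, -0.10 and 0.66, so it did not show the ratios of -1.52 and 1.26 that CHX20 had on sets 1 and 2.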
